A study of Drosophila melanogaster with 12 samples.

Results

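Maturation of the oocyte was followed in flies mutant for wispy (wisp), by comparing mutant oocytes at the end of oogenesis with mutant oocytes at mid-oogenesis. The comparison uses 4 of the 12 libraries of a study of Drosophila melanogaster oocytes and eggs, and its members are all libraries labelled as mutant immature or mutant mature oocytes, 2 of each. The mutant females carried wispKG5287, an allele that the labels call null, and the control females were w1118. Immature oocytes were at oogenesis stages 9 to 10 and mature oocytes at stage 14, and both were dissected by hand from females aged 3 to 4 days. It is the only mutant allele used, so an effect of its genetic background cannot be told apart from an effect of wisp. Total RNA was sequenced after removal of ribosomal RNA. Every library began from an equal mass of RNA and of spike-in controls.

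In the fly ovary the nurse cells make most of the RNA that the egg will need and pass it to the oocyte, which itself transcribes little. Between stages 9 to 10 and stage 14 the nurse cells empty into the oocyte and die, the oocyte enters the first meiotic division and stops at metaphase. Wispy is a cytoplasmic poly(A) polymerase: it lengthens the tails of stored maternal mRNAs late in oogenesis and at egg activation, and the tail bears on both translation and decay of an mRNA.

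Each value is a normalised read count made by the authors for a transcript record, and 5421 distinct records, called genes here, were analysed. The values of a library summed to 12549215 and 12197828 in the mutant immature libraries and to 12161374 and 13210342 in the mutant mature ones. The number of reads behind them is unknown. A gene is listed only if it reached about 100 in every one of the 12 libraries, so transcripts that fell below that level are not seen. Fold changes are on the log2(value + 1) scale, mature minus immature. Genes with a Benjamini-Hochberg adjusted p under 0.05 were called. The test was limma, a linear model that shares the estimate of spread over genes and here over all 12 libraries. Values measure an amount relative to the rest of the library, so fewer cells of a type and less RNA per cell cannot be told apart.

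The libraries did not lie equally close. The 2 mutant mature libraries correlated at 0.994 across genes, and 7 genes differed by at least 2-fold between them. The 2 mutant immature libraries correlated at 0.858, and 931 genes differed by at least 2-fold. Mutant immature replicate 2 lay closest to the wild type immature library of the same number (0.977), while mutant immature replicate 1 correlated at 0.942 with wild type immature replicate 1 and at 0.918 and 0.912 with the mature mutant libraries. Of 18 nurse cell and germline markers 17 were in the table, with a summed level of 148030 and 130649 in the immature and 131453 and 149766 in the mature mutant libraries. None of 25 follicle cell, 9 muscle sheath and 10 hemocyte and fat body markers was listed. A longer muscle list had 2 of 16 genes in the table, flr and Tm1, neither called, with a summed level of 4549 and 4003 in the immature and 4507 and 4992 in the mature mutant libraries. Since a gene must reach about 100 in all 12 libraries to be listed, this gives no level for those cells at any 1 stage.

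The wisp transcript itself was low in the mutant at both stages. Its normalised read count was 718.1 and 249.0 in the immature and 249.1 and 258.8 in the mature mutant libraries, against 10190 and 3623 in the immature and 7811 and 9722 in the mature wild type libraries. Every mutant library lay below every wild type library. Between the mutant stages the groups overlapped, and the log2 fold change was -0.73 (SE 0.67, limma adjusted p = 0.446). Its sign rested on immature replicate 1, without which it was 0.03.

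More genes were called lower than higher. Of the 5421 genes, 617 were lower (11.4%) and 91 higher (1.68%) in mature than in immature mutant oocytes in limma. At an unadjusted p under 0.05 the shares were 20.5% and 9.59%. The lower genes had a median log2 fold change of -1.07 and 44 of them fell by at least 4-fold. The higher genes had a median of 0.98, and none of them rose by 4-fold. The median over all genes was 0.05. In the lower genes the median level went from 681.2 to 291.6, and 170 of the 617 ended at a mean under 200, close to the lowest level that the table lists. These counts rested on the few libraries: without mutant mature replicate 1 there were 123 lower and 4 higher genes, without mutant mature replicate 2 there were 157 and 0, without mutant immature replicate 2 there were 252 and 83, and without mutant immature replicate 1 there were 408 and 42. Leaving out either wild type mature library, which enters only through the shared spread, gave 395 lower and 28 higher. Higher genes made up 12.9% of the calls, and 20.1% under TMM scaling, 19.8% under median-of-ratios scaling and 23.1% once the length trend was taken out. Lower calls outnumbered higher ones in every alternative except the fit without replicate 1 of both immature groups, given further on. None of the 708 called genes changed sign in any alternative. In all of them the mutant groups did not overlap, so leaving out libraries could not turn a sign. Only changes of scaling or normalisation and removal of the length trend could have done so.

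**Figure D1:**
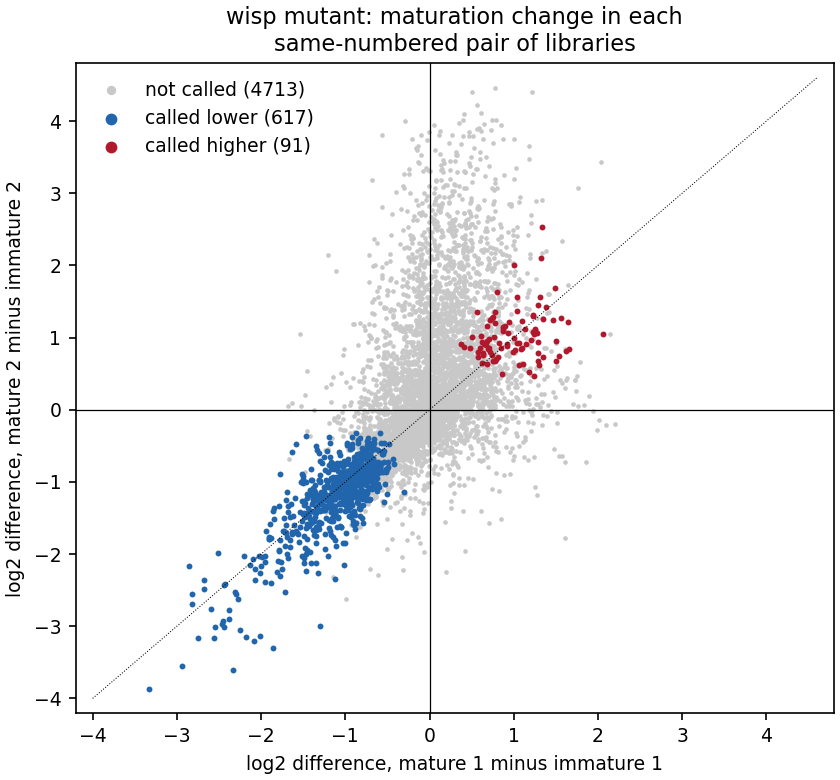
Each point is a gene, with the log2 difference of mature minus immature mutant oocytes in the libraries numbered 1 on the x axis and in those numbered 2 on the y axis. The colours mark the 617 genes called lower, the 91 called higher and the genes not called, and the dotted line is equality. The lower calls lie along the line in both pairs, while 1061 genes reach a 2-fold rise on the y axis but not on the x axis.

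The small number of higher calls does not mean that few genes had higher means. By the mean, 613 genes were at least 2-fold higher and 396 at least 2-fold lower, yet 6.69% of the first and 90.7% of the second were called. Among the 2-fold higher genes the 2 immature libraries differed by a median of 1.63 on the log2 scale, against 0.24 among the 2-fold lower genes. In 1061 genes the mature library was at least 2-fold above the immature one in pair 2 but not in pair 1, and 17 of them were called. Their median level was 1146 in immature replicate 1, 400.9 in immature replicate 2, and 1340 and 1558 in the mature libraries, so it was immature replicate 2 that stood low. Of these 1061 genes, 929 were also at least 2-fold higher in pair 2 of the wild type. How many of all genes rose this far in that wild type pair was not counted. Same-numbered immature libraries of the genotypes deviated together (0.849), so 929 cannot be read as particular to these genes. Without replicate 1 of both immature groups each keeps a lone library, so neither adds to the estimate of spread. The counts of calls from that fit, given further on, hold more higher than lower genes. They rest on another estimate of spread and do not show how many genes rose. Leaving out 1 library also leaves a lone library in its group, so those counts have the same limit. The part of mutant immature replicate 2 in the result was not tested.

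Among the called lower genes, 44.6% are known only by an annotation number and were left out of this ranking. Of the 12 largest falls among the others, 5 were small nucleolar RNAs, led by snoRNA:U3:9B (-2.97), and 7 were protein-coding genes. The gene bsf (bicoid stability factor, chromosome 2L from 18449517 to 18454587, minus strand, dm6), an LRPPRC-like RNA-binding protein first known for its binding to maternal bicoid mRNA, had a normalised read count of 3619 and 4923 in the immature and 358.0 and 335.2 in the mature mutant libraries. The groups were far apart, with a log2 fold change of -3.60 (SE 0.31, limma adjusted p = 0.000755). Wild type oocytes held the same transcript at 4593 and 6047 when immature and at 3083 and 2879 when mature. The wild type groups did not overlap either, but the log2 fold change was -0.82 and was not called.

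Fib (fibrillarin, chromosome 2R from 23072909 to 23074725, minus strand, dm6), the methyltransferase of box C/D small nucleolar ribonucleoproteins, was at 1522 and 1846 in immature and 198.2 and 157.2 in mature mutant oocytes. Its log2 fold change was -3.24 (SE 0.28, limma adjusted p = 0.000779), against -0.77 in the wild type. RpI1 (chromosome 2R from 14595611 to 14601216, minus strand, dm6), the largest subunit of RNA polymerase I, which transcribes ribosomal RNA, went from 2655 and 3459 to 483.6 and 452.3, a log2 fold change of -2.69 (SE 0.21, limma adjusted p = 0.000755). In both genes each mature mutant library was below each immature one by several-fold.

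Tango14 (chromosome 2L from 1158661 to 1160220, plus strand, dm6), a homolog of the NUS1 subunit of the enzyme that makes dolichol for protein glycosylation, was at 872.3 and 1103 in immature and 128.9 and 122.8 in mature mutant oocytes. Its log2 fold change was -2.95 (SE 0.21, limma adjusted p = 0.000755). Wild type values were level, at 975.9 and 1400 in immature and 1207 and 1139 in mature oocytes, with overlapping groups. Both mutant mature values are near the floor of the table.

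Adk2, an adenylate kinase that balances adenine nucleotides, went from 2582 and 2740 to 364.5 and 421.9 in the mutant, a log2 fold change of -2.76 (SE 0.26, limma adjusted p = 0.00114), against -0.46 in the wild type. Cyp6a19 (chromosome 2R from 14877786 to 14879752, plus strand, dm6), a cytochrome P450, differed between genotypes already in immature oocytes. It was at 1590 and 1462 in immature and 223.5 and 248.6 in mature mutant oocytes, and at 6157 and 5774 in immature and 7040 and 7415 in mature wild type oocytes. In the mutant it fell by 2.69 on the log2 scale (SE 0.16, limma adjusted p = 0.00055), while the wild type groups were apart in the other direction, with a log2 fold change of 0.28 that was not called. The purine synthesis enzyme ade3 was lower too (-2.65), and its wild type log2 fold change was -1.80.

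Of 72 called genes named by rule, 20 of the 51 lower ones were called under each of the 23 other settings that gave a value (those with crossed replicate numbers not counted), and 0 of the 21 higher ones. The 20 include bsf, Fib, RpI1, Tango14, Adk2 and Cyp6a19. Their log2 fold changes over the alternatives ran from -3.98 to -3.38 for bsf, from -3.41 to -3.05 for Fib and from -2.77 to -2.60 for Cyp6a19. Of the 21 higher genes RnrL was called in 21 of 23 alternatives and Msh6 in 11.

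**Figure D2:**
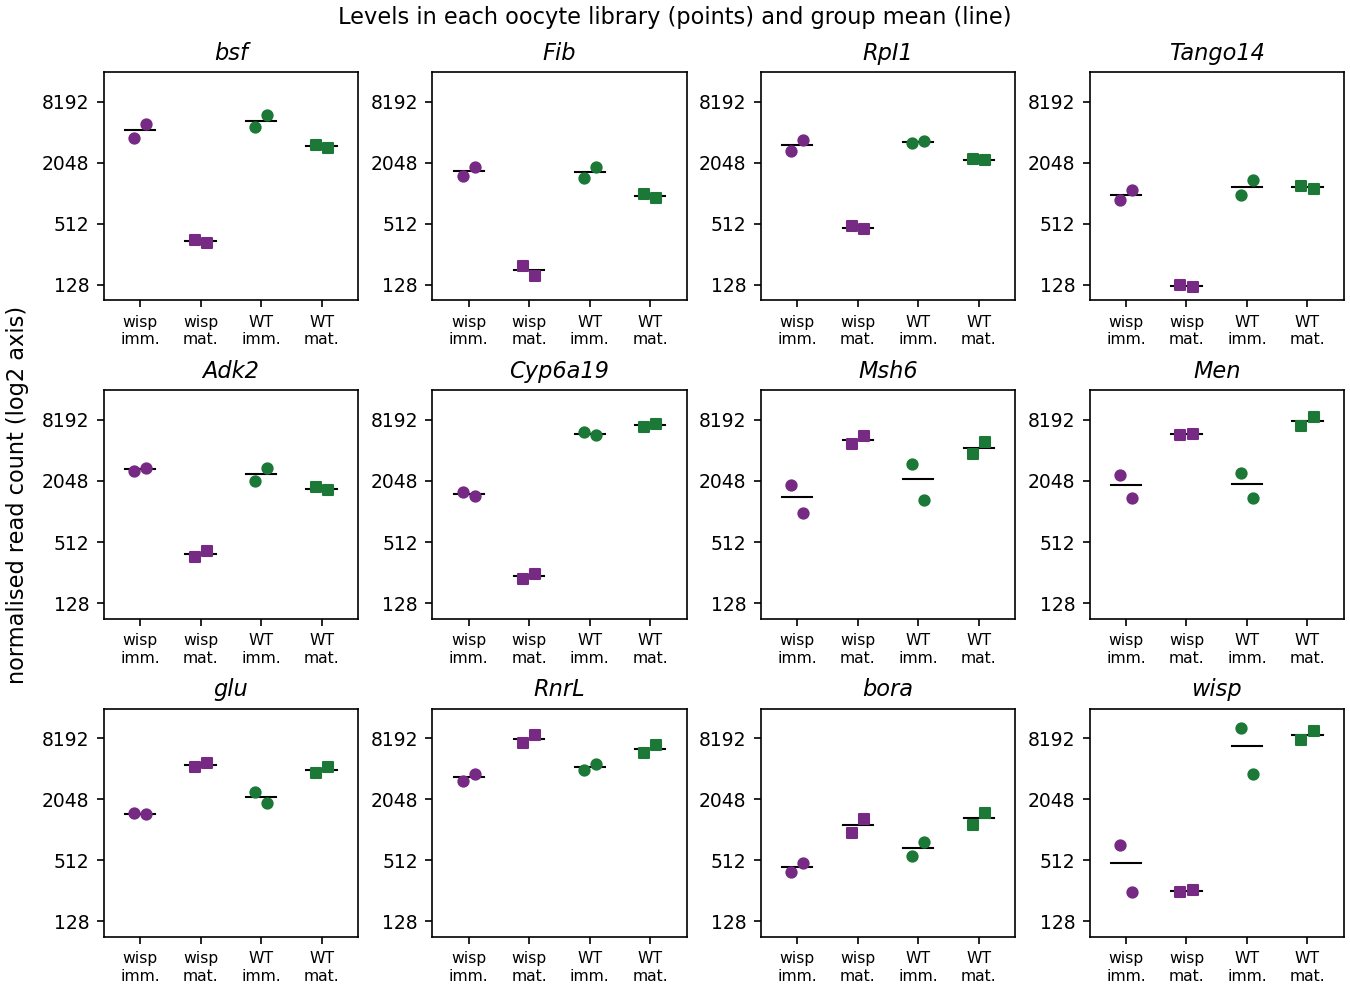
Normalised read count on a log2 axis in each oocyte library (points, circles for immature and squares for mature) with the group mean (line), for 11 genes with large changes and for wisp. In bsf, Fib, RpI1, Tango14, Adk2 and Cyp6a19 the mature mutant libraries stand below all other groups, while Msh6, Men, glu, RnrL and bora are higher in mature than in immature oocytes of both genotypes.

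Of 21 listed genes of the nucleolus and of ribosome assembly 14 were lower and 0 higher, against 11.4% and 1.68% of all genes, with a list median of -1.06 (wild type -0.31). The other 7 were not called, and members ranged up to 0.78. Both mature libraries lay below both immature ones in 16 of the 21 in the mutant and in 16 in the wild type, compared with 34.4% and 17.4% of all genes. The lower members hold both kinds of small nucleolar ribonucleoprotein cores: with Fib for the box C/D type, Nop56 (-1.58), hoip (-1.13) and nop5 (-0.69), and for the H/ACA type, which guides pseudouridine formation, NHP2 (-2.51) and Nop60B, the fly dyskerin (-0.92). NHP2 was at 1105 and 752.1 in immature and 151.8 and 167.5 in mature mutant oocytes, whereas Nop60B, an abundant transcript, was at 12400 and 11520 and then at 6262 and 6389. The sizes thus ranged widely within 1 complex. Here and for the later lists, a count under another setting is to be set against all genes under that setting. The shares of 11.4% and 1.68% do not hold there: with only the compared libraries 190 of 5421 genes were lower and 19 higher. The count of lower members was 5 without either mutant mature library, 9 without mutant immature replicate 2 and 6 with only the compared libraries in the fit, and the list median lay between -1.21 and -0.90 in every alternative except the filter on low values, where it was not taken.

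Of 25 RNA polymerase subunits and general transcription factors 10 were lower and 0 higher, against 11.4% and 1.68% of all genes, with a list median of -0.54 (wild type 0.11). The other 15 were not called, and members ranged up to 1.97. In 14 members both mature mutant libraries lay below both immature ones and in 5 above, compared with 34.4% and 32.8% of all genes. For the wild type these counts were 4 and 6, compared with 17.4% and 25.9% of all genes. Besides RpI1 and CG3756, which are also counted among the nucleolar genes, the lower members were the RNA polymerase II subunits RpII140 (-1.46), RpII18 (-1.50), Rpb5 (-1.15) and Rpb10 (-1.06), some of which other polymerases share, with Sin (-1.48) and 3 genes known by annotation numbers, from -1.03 to -0.77. RpII140, the second largest subunit, was at 2441 and 4343 in immature and 1123 and 1246 in mature mutant oocytes. Without mutant mature replicate 1 or 2 the count was 3 and 4, without mutant immature replicate 2 it was 6, and with only the compared libraries it was 5.

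Mitochondrial ribosomal protein genes gave the longest list of falls. Of 67 listed members 38 were lower and 0 higher, against 11.4% and 1.68% of all genes, with a list median of -0.79 (wild type -0.15). In 61 of the 67 both mature mutant libraries lay below both immature ones, compared with 34.4% of all genes. For the wild type this held for 22 of the 67, compared with 17.4% of all genes. Among the called members the falls went from -1.69 in mRpL47 to -0.53 in mRpL11, and they took in both the large and the small subunit. The other 29 were not called, and members ranged up to 1.54. The values of mRpL47 were 609.5 and 552.6 in immature and 208.2 and 154.9 in mature mutant oocytes, and those of mRpL20 were 394.8 and 301.0 and then 108.8 and 117.0. Both genes ended far below their immature levels, and mRpL20 ended at the floor of the table.

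Transcript length moved with the change across all genes, as given further on, and after removal of the length trend 26 were lower and the list median was -0.50. The count was 9 with quantile normalisation, 13 with only the compared libraries, 7 with genes under a mean of 500 removed, 23 with protein-coding sum scaling and 25 with TMM scaling. In the same order the lower calls among all genes were 238, 190, 252, 388 and 461, so 11.4% is not their measure. The filter also takes out list members, and the number left was not counted. Without 1 library it was 17 (mutant immature replicate 1), 21 (mutant immature replicate 2), 6 (mutant mature replicate 1) and 11 (mutant mature replicate 2).

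Cytoplasmic ribosomal protein genes, whose proteins form the ribosome outside the mitochondria, showed another pattern. Of 82 members 2 were lower and 0 higher, which is below the 11.4% of all genes. The 2 lower members were RpS5a (-1.40) and RpL13A (-0.96). In 74 of 82 both mature mutant libraries were below both immature ones, compared with 34.4% of all genes, and in the wild type in 80 of 82, compared with 17.4%. The list median was -0.46 in the mutant and -0.55 in the wild type, so the shift was small and shared by both genotypes. Nuclear genes of oxidative phosphorylation were alike in this, with 2 of 68 lower, SdhC (-1.80) and CG3560, 0 higher, and a median of -0.27 in both genotypes. The difference in the share of calls between these 2 mitochondrial lists was not tested.

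**Figure D3:**
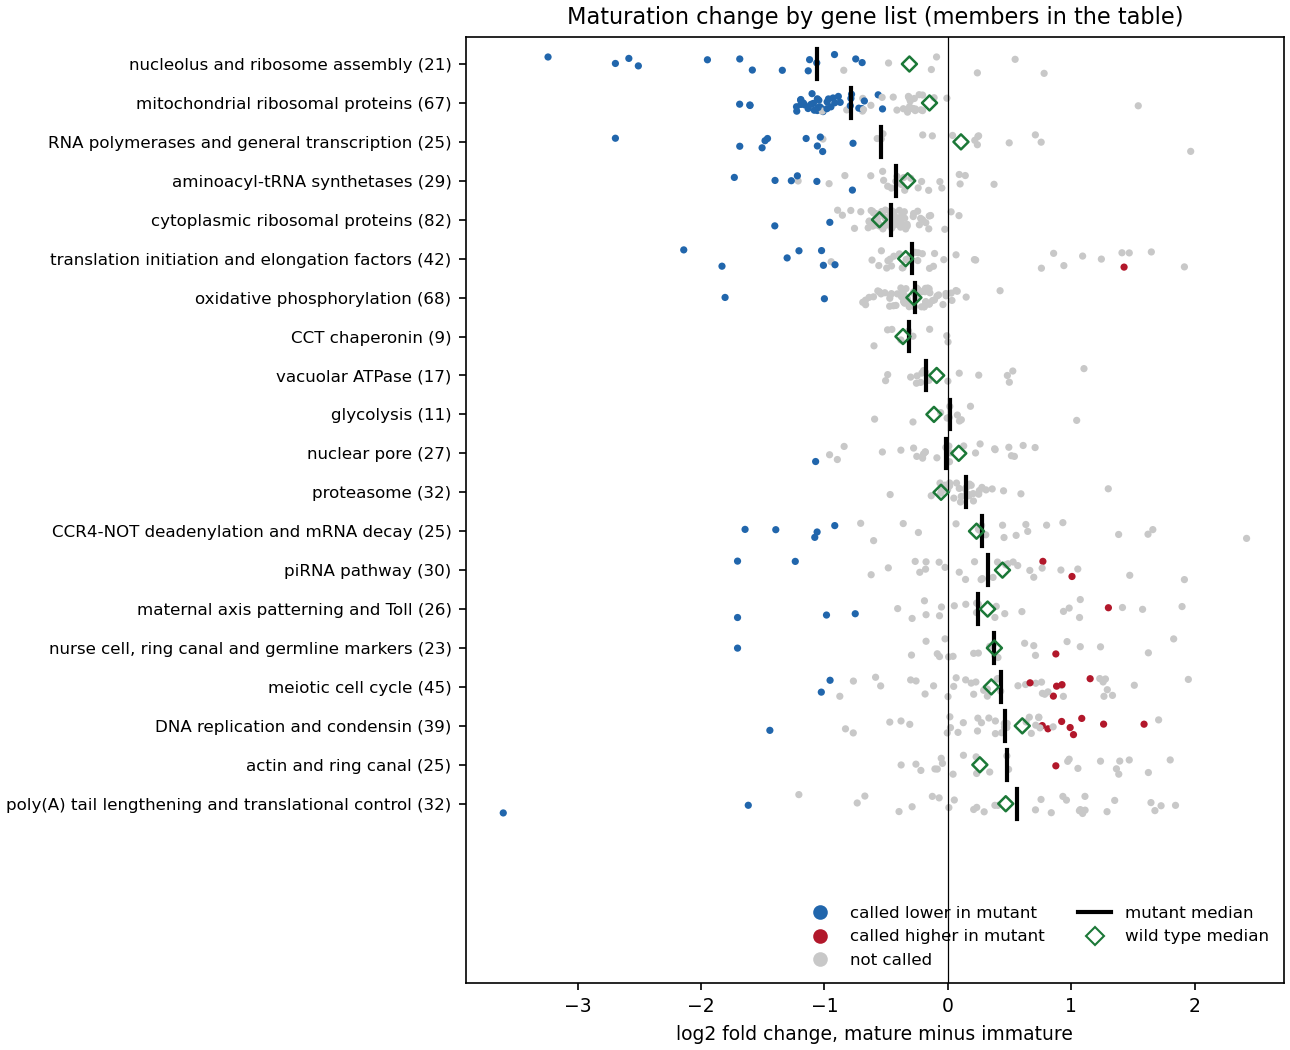
Log2 fold change of mature minus immature mutant oocytes for each listed member of 20 gene lists (points, blue for called lower, red for called higher, grey for not called), with the mutant median (black bar) and the wild type median (green diamond). Nucleolar, mitochondrial ribosomal and RNA polymerase genes have mutant medians of -1.06, -0.79 and -0.54, each lower than in the wild type, while cytoplasmic ribosomal and oxidative phosphorylation genes have like medians in both.

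Of 42 translation initiation and elongation factors 7 were lower and 1 higher, against 11.4% and 1.68% of all genes, with a list median of -0.29 (wild type -0.34). The lower share is not far from that of all genes. As a family picked out after its values were seen, all 5 subunits of eIF2B, the exchange factor that recharges eIF2 with GTP, were lower, from -2.14 in eIF2B-epsilon, its catalytic subunit, to -0.91 in eIF2B-alpha. The beta subunit of its substrate, eIF-2beta, fell by 1.83 and the ribosome joining factor eIF6 by 1.21. The higher member was eIF4G2, a variant of the scaffold eIF4G known from the fly testis (1.43). The level of eIF2B-epsilon was 1297 and 1699 in immature and 308.7 and 365.8 in mature mutant oocytes. That of eIF-2beta was 4424 and 4000 and then 1195 and 1170. In both genes the mature libraries lay far below the immature ones and close to each other. Without mutant mature replicate 1 or 2 the count of lower members was 2, without mutant immature replicate 2 it was 3, and eIF4G2 was called in 12 of 23 alternatives. Of 29 aminoacyl-tRNA synthetases, which load tRNAs, 6 were lower and 0 higher, against 11.4% and 1.68% of all genes, led by Aats-phe (-1.73). The next largest falls were in CG8257 (-1.4), Aats-ser (-1.27) and Aats-leu (-1.22). In the order given, these genes are now named PheRS-m, CysRS-m, SerRS-m and LeuRS-m, which are mitochondrial enzymes. The count of lower synthetases was smaller without any 1 of mutant immature replicate 2, mature replicate 1 and mature replicate 2.

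Regulators of the mRNA tail and of mRNA decay act on the same molecules as Wispy. Of 25 genes of the CCR4-NOT deadenylase and of mRNA decay 5 were lower and 0 higher, against 11.4% and 1.68% of all genes, while the list median was 0.27 (wild type 0.23) and -0.06 after removal of the length trend. The lower members were Dis3, the nuclease of the RNA exosome (-1.64), Not10 (-1.39), Rga (-1.06) and Not11 (-0.92), which are subunits of CCR4-NOT, and Upf3, a factor of nonsense-mediated decay (-1.08). Rga, the fly NOT2, was at 1585 and 1751 in immature and 822.3 and 776.3 in mature mutant oocytes and at 2107, 1910, 2288 and 2456 in the wild type libraries in the same order. The wild type groups were thus apart in the other direction, with a log2 fold change of 0.24 that was not called. Without mutant mature replicate 1 or 2 the count of lower members was 1 and 2, and with only the compared libraries it was 1. Of 32 genes of tail lengthening and translational control 2 were lower and 0 higher, bsf and CstF-50 (-1.62), a factor of nuclear 3′ end formation. That share is below that of all genes. The list median was 0.56 (wild type 0.47), and it was 0.18 without mutant immature replicate 2 and 0.85 without mutant immature replicate 1.

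All lists together held 766 of the 5421 genes, with 20 of the 91 higher and 98 of the 617 lower calls. Of 39 genes of DNA replication and condensin 8 were higher, against 1.68% of all genes, and 1 was lower, with a list median of 0.46 (wild type 0.60). Both mature mutant libraries were above both immature ones in 27 of the 39, compared with 32.8% of all genes, and in the wild type in 32 of the 39, compared with 25.9%. Higher were glu, the SMC4 subunit of condensin (1.59), RnrL, the large subunit of ribonucleotide reductase (1.26), Cap-D2, another condensin subunit (1.09), RpA-70 (1.02) and RPA2 (0.81) of the single-strand binding protein, dpa, a subunit of the MCM helicase (0.99), Cdc6 (0.92) and PCNA, the sliding clamp (0.77). The lower member was Pole2, a subunit of DNA polymerase epsilon (-1.44). The groups of glu were 1503 and 1445 in immature and 4218 and 4673 in mature mutant oocytes, and those of RnrL were 3125 and 3588 and then 7295 and 8854. In both genes every mature library was above every immature one, and in the wild type too, with log2 fold changes of 0.90 and 0.60. The count of higher members was 1 without mutant mature replicate 1, 0 without mutant mature replicate 2, 4 and 3 without mutant immature replicates 1 and 2, 4 without either wild type mature library, 3 with quantile normalisation, 4 with protein-coding sum scaling and 1 with only the compared libraries.

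Of 45 genes of the meiotic cell cycle 5 were higher and 2 lower, against 1.68% and 11.4% of all genes, with a list median of 0.43 (wild type 0.35). The lower share is thus below that of all genes. The higher ones were BubR1, a spindle checkpoint kinase (1.15), polo, the Polo kinase (0.93), cdc2c, the fly Cdk2 (0.88), ncd, the kinesin that focuses the meiotic spindle (0.86), and borr, a subunit of the chromosomal passenger complex (0.67). The lower ones were APC4, a subunit of the anaphase-promoting complex (-1.02), and cort, its meiosis-specific activator (-0.95). The level of cort was 776.8 and 901.5 in immature and 453.3 and 410.9 in mature mutant oocytes, against 985.9 and 1314 and then 1201 and 1158 in the wild type. The mutant groups were apart and the wild type groups overlapped. The level of polo was 5497 and 4333 in immature and 8850 and 9717 in mature mutant oocytes. Without mutant mature replicate 1 or 2 and with only the compared libraries 0 of these 7 calls were left in either direction, without mutant immature replicate 2 there were 1 higher and 0 lower, without mutant immature replicate 1 there were 3 and 2, and without either wild type mature library 2 and 1.

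The largest named rises among called genes follow. Msh6, which recognises mismatched bases, was at 1866 and 989.4 in immature and 4721 and 5742 in mature mutant oocytes, with a log2 fold change of 1.94 (SE 0.53, limma adjusted p = 0.0465). Men, a malic enzyme that makes NADPH, was at 2330 and 1392 and then at 5842 and 5964 (1.71, SE 0.40, limma adjusted p = 0.0283), and its wild type log2 fold change was larger, at 2.10. In both genes the immature libraries lay far from each other but below both mature ones. The other named rises were upSET (1.56), a chromatin protein, sti, the citron kinase of cytokinesis (1.42), RhoGEF4 (1.40), bora, which activates Aurora A (1.37), mars, a spindle protein (1.30), cact, the IκB protein that holds Dorsal in the cytoplasm (1.30), and Ncoa6 (1.25). Klp61F, a kinesin of the bipolar spindle (1.13), and cid, the histone H3 variant of centromeres (1.07), were higher too. Of 26 motor and tubulin genes 2 were higher and 0 lower, and of 12 histone genes 1 was higher and 1 lower. Among all genes 1.68% were higher and 11.4% lower. The list medians were 0.345 and 0.501 in the mutant, against 0.305 and 0.607 in the wild type. His4r, a histone H4 gene outside the histone cluster, was lower (-1.14).

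Genes of the egg surface and of embryonic patterning were called singly. Of 23 genes of egg activation and its kinase 3 were lower and 0 higher, against 11.4% and 1.68% of all genes. The lower share is thus near that of all genes. The lower members were cort again and the egg covering genes clos (-1.70) and fs(1)M3 (-1.43). The level of clos was 5539 and 7668 in immature and 1980 and 2036 in mature mutant oocytes, and in the wild type it was 5356 and 6747 and then 3787 and 3902. The groups were apart in both genotypes. In the piRNA pathway, which silences transposons, 2 of 30 genes were lower, vls (-1.70) and the Piwi protein aub (-1.24), and 2 were higher, shu (1.01) and krimp (0.77). Among 26 genes of axis patterning and the Toll pathway vls, the protease ea (-0.98) and the kinase pll (-0.75) were lower and cact was higher. With 3 lower of 26, the lower share of this list is near the 11.4% of all genes. The piRNA list, with 2 higher of 30, had a larger share of higher genes than the 1.68% of all genes, on a count of 2. Its share of lower genes, also 2 of 30, was below the 11.4% of all genes.

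Many housekeeping lists had few calls or none. None of 32 proteasome, 11 glycolysis, 17 vacuolar ATPase, 9 CCT chaperonin, 10 microRNA and siRNA and 12 ecdysone and nuclear receptor genes was called in limma, where 11.4% of all genes were lower and 1.68% higher. Of 14 heat shock and chaperone genes only Hsp60, the mitochondrial chaperonin, was called, at 17790 and 20750 in immature and 5161 and 5335 in mature mutant oocytes (-1.87). Single members were lower among 27 nuclear pore genes (Nup93-2, -1.07), 14 glutathione transferases (GstE8, -0.84) and 17 genes of yolk uptake and lipid (bgm, -0.83). Among 25 actin and ring canal genes qua, a villin of the nurse cell actin bundles, was higher (0.88).

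Length of the transcript moved with the change. The called lower genes had a median transcript length of 1533 nt and 3 exons, the called higher genes 2906 nt and 5 exons, and all genes 2244 nt and 4 exons. In 8 bins of equal size the median log2 fold change went from -0.31 in the shortest (median 811 nt) to 0.59 in the longest (median 6480 nt), and the calls from 155 lower and 3 higher to 8 lower and 16 higher. The wild type medians went from -0.04 in the shortest to 0.26 in the longest bin. Both same-numbered mutant pairs had the trend. With the length trend taken out of each library, 535 genes were lower and 161 higher, and 482 and 69 of the genes called on the values as deposited were among them. The part of length in the single changes was not tested further. The X chromosome held 18.2% of the lower, 14.3% of the higher and 18.3% of all genes.

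**Figure D4:**
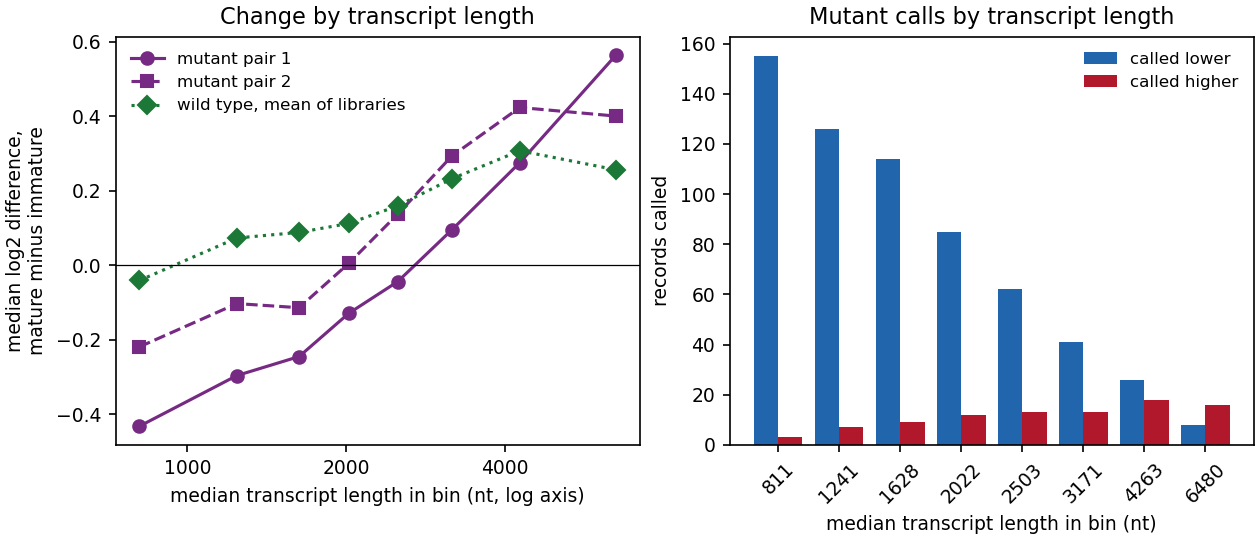
Left, the median log2 difference of mature minus immature oocytes in 8 bins of transcript length (x axis, log scale, nt) for each mutant pair of libraries and for the wild type mean. Right, the number of genes called in the mutant in the same bins: lower calls go from 155 in the shortest bin to 8 in the longest, and higher calls from 3 to 16.

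Wild type maturation gave mostly the same sign and a smaller spread. Across genes the 2 log2 fold changes correlated at 0.792, with a standard deviation of 0.774 in the mutant and 0.485 in the wild type, and 4222 of 5421 genes had the same sign. The contrasts share no library, but same-numbered immature libraries of the genotypes deviated together (0.849). In the wild type 0 genes were called in limma (0%), and 522 had an unadjusted p under 0.05 (9.63%). At least 2-fold lower means were found in 396 genes in the mutant and 41 in the wild type, and at least 2-fold higher means in 613 and 321. Of the 617 genes lower in the mutant 470 had a negative log2 fold change in the wild type, with a median of -0.17. Of the 91 higher genes none had a negative one, with a median of 0.61. A call in the mutant and none in the wild type does not show a difference, which needs its own test.

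That test, of the mutant change against the wild type change, called 56 genes (1.03%) in limma, all of them more negative in the mutant. At an unadjusted p under 0.05 there were 646 (11.9%). Of the 56, 54 were also called lower in the mutant, and their median log2 fold change was -1.35 in the mutant and 0.02 in the wild type. In the mature libraries all 56 had a lower mean in the mutant than in the wild type. They include Cyp6a19 (difference -2.96, limma adjusted p = 0.00416), Tango14 (-2.96, limma adjusted p = 0.0151), bsf (-2.78, limma adjusted p = 0.0323), Fib (-2.47), Adk2 (-2.30), NHP2 (-2.13), RpI1 (-2.12), mRpL20 (-1.50), mRpL47 (-1.50), eIF-2beta (-1.40) and Rga (-1.30). For these 11 genes and Hsp70Aa the difference rested on the fit: Cyp6a19 kept its call with TMM, median-of-ratios, quantile and protein-coding sum scaling, and the other 11 lost it in all 4. Cyp6a19 lost it without mutant mature replicate 1 (limma adjusted p = 0.0715), without wild type mature replicate 1 (0.0619) or 2 (0.0733) and with a replicate block over the 8 oocyte libraries (0.117). The whole count was 2, 2, 1 and 2 with these scalings, 14 after removal of the length trend, 1 with a replicate block and from 0 to 76 without 1 library. With a replicate block fitted separately in each stage it was 531, of which 508 were more negative and 23 more positive in the mutant, and the 56 were among them. All 56 kept a negative difference in every alternative that gave them a value. Replicate blocks, array weights and fits of only the compared libraries leave the size of the difference unchanged, so they could not turn it.

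**Figure D5:**
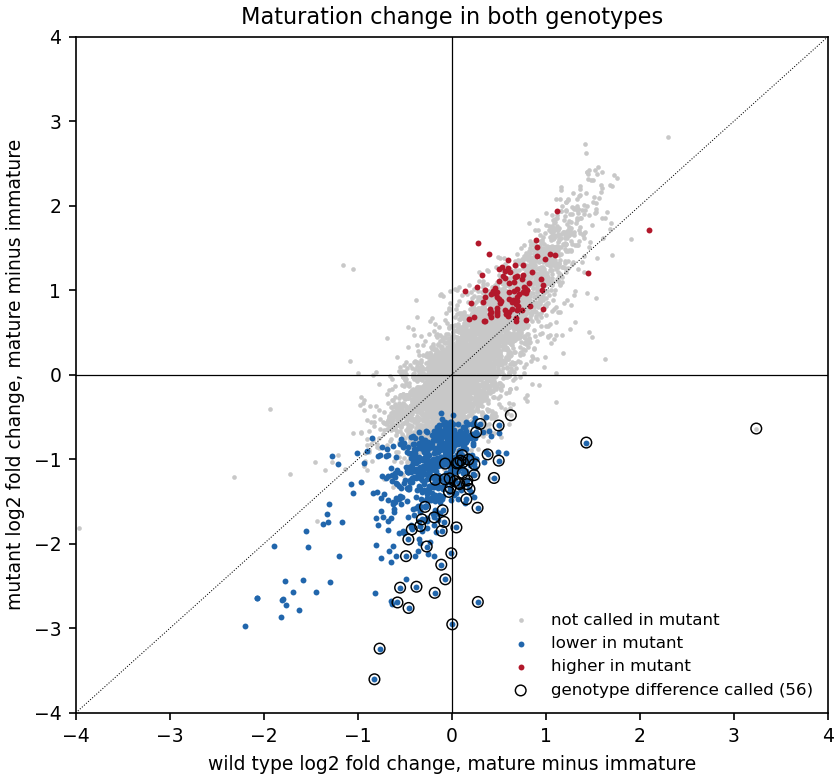
Each point is a gene, with the log2 fold change of mature minus immature oocytes in the wild type on the x axis and in the mutant on the y axis. Blue and red mark genes called lower and higher in the mutant, rings mark the 56 genes whose change differed between genotypes, and the dotted line is equality. The cloud is steeper than the line, and the rings lie below it.

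The largest difference by size was in Hsp70Aa, an inducible heat shock gene. Its level was 6477 and 4062 in immature and 2957 and 3684 in mature mutant oocytes, and 857.1 and 284.8 and then 3832 and 5699 in the wild type. The difference was -3.88 (limma adjusted p = 0.0455), while the mutant change alone was -0.64 (limma adjusted p = 0.373) and the wild type change 3.24 (limma adjusted p = 0.243). In immature oocytes both mutant libraries lay above both wild type ones, and the wild type groups were apart. Hsp70 genes are near-identical copies, so the reads assigned to any 1 of them are uncertain.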

How the data were processed

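Values are normalised read counts as the authors deposited them, a signal of 0 or more that is not whole numbers, for 5422 transcript records, of which 1 was an exact duplicate and was dropped. Per the submitters' processing notes STAR 2.4.2a, HTSeq, RSEM 1.2.25 and the build dm6 were used, without their roles. How the counts were normalised is not stated there. The table used here has 0 spike-in rows. No step turned the values into whole reads (best share 19.5% within 0.05, chance 10%), so depth is unknown, no count test was run and no counting interval is given. Accessions were matched to RefSeq (5407) and to gene models for length (5421). The library kit as labelled is not stated to mark strand, so overlapping genes, and small RNAs inside host introns, cannot be told apart from their neighbours.

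One limma fit (limma 3.58.1, R 4.3.3, intensity trend) on log2(value + 1) estimated 6 group means from 12 libraries, with 6 residual and 2.43 prior degrees of freedom. Replicates are biological per the labels. The members, 31 gene lists, tests and alternatives were chosen with earlier results of these data known. Genes were named by rule: wisp, the 12 largest called changes each way without annotation-number names, up to 4 called members of each list (or the 2 most abundant), and the 5 largest genotype differences. Other genes in the text were named after their values were seen. The code was checked on simulated data with known changes.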

Additional observations from a re-analysis of the deposited data

Results flagged for a closer look

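The maturation change differed between the mutant and the wild type in 56 genes by the interaction term of the limma fit, all more negative in the mutant. Of the genes named by rule, 12 were among them. The difference, mutant minus wild type log2 fold change, was -2.78 in bsf, -2.47 in Fib, -2.96 in Tango14, -2.30 in Adk2, -2.12 in RpI1, -2.96 in Cyp6a19, -1.50 in mRpL47, -1.50 in mRpL20, -1.40 in eIF-2beta, -1.30 in Rga, -2.13 in NHP2 and -3.88 in Hsp70Aa. For each, limma gave a Benjamini-Hochberg adjusted p below the threshold of 0.05. Groups of 2 libraries are too small for a search for single outlying libraries.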

How the results depend on the processing

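Counts are given as higher and lower mutant genes, then genotype differences. They were 91, 617 and 56 with the values as deposited and did not move by over 1.5 times with pseudocounts of 0.5 and 5. With genes under a mean of 500 removed they were 51, 252 and 12, and with quantile normalisation 35, 238 and 1. TMM and median-of-ratios scaling gave 2 differences each, protein-coding sum scaling 388 lower and 2 differences, removal of the length trend 161 higher and 14 differences, and only the compared libraries 19, 190 and 2. Without an intensity trend there were 35 differences and with array weights 19.

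Leaving out 1 oocyte library gave 0 to 169 higher, 123 to 718 lower and 0 to 76 differences, and 0 to 1 wild type genes. Without replicate 1 of both immature groups the counts were 946, 825 and 3 with 1 wild type gene, and without replicate 2 of both 120, 392 and 3 with 3 wild type genes. A lone library left in a group is assumed to vary like the other groups.

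The labels do not tie the replicate numbers to a batch, and deviations of same-numbered immature and mature mutant libraries correlated at -0.375, so the libraries were not taken as pairs. Between genotypes within a stage they correlated at 0.849 (immature), 0.483 (mature) and 0.771 (activated), which bears on the genotype difference. A replicate block gave 60 higher, 446 lower and 1 difference over 12 libraries, 70, 612 and 0 over the 8 oocyte libraries, and 531 differences (508 more negative and 23 more positive in the mutant) as a block within each stage. With the numbers crossed in the immature groups, chosen after seeing the data, the block gave 833, 955 and 172 with 48 wild type genes, and over 8 libraries 187, 615 and 5 with 16.

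None of the 72 named calls changed sign, which leaving out libraries could not bring about, since their mutant groups did not overlap. Sign changes were in genes not called. CG7033 turned with TMM (-0.023), median-of-ratios (-0.013) and protein-coding sum scaling (-0.068) and ran from -0.302 to 0.306 without 1 library. ttk turned with quantile normalisation (-0.182), protein-coding sum scaling (-0.023) and the length trend removed (-0.336) and ran from -0.228 to 0.322. AGO2 turned with quantile normalisation (-0.066) and the length trend removed (-0.179), Rpn1 with the first (-0.026), and Eno (-0.023) and gw (-0.106) with the second. Without 1 library wisp ran from -1.496 to 0.028, flr from -0.142 to 0.058, Vha100-2 from -0.363 to 0.058, Vha16-1 from -0.332 to 1.298 and Rpn2 from -0.295 to 0.196. The causes were not tested.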

Other observations

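Further gene families were looked up after the values had been seen, so their counts are descriptions with no test, to be set against 11.4% lower and 1.68% higher among all genes. Of 16 small nucleolar and Cajal body RNAs, which guide the modification of ribosomal and spliceosomal RNA, 15 were called lower in mature mutant oocytes, with a family median of -2.57. After removal of the length trend the change shrank, from -2.73 to -1.45 in snoRNA:Or-aca5, from -2.86 to -1.62 in snoRNA:Psi18S-176 and from -2.66 to -1.38 in snoRNA:Psi28S-2179. The wild type median was -1.58, and both mature libraries lay below both immature ones in 15 of 16 members in each genotype. Among all genes this held for 34.4% in the mutant and 17.4% in the wild type. The RNA snoRNA:Psi18S-176 was at 3074 and 2865 in immature and 519.2 and 318.7 in mature mutant oocytes, and at 3107 and 2770 and then 914.0 and 753.1 in the wild type. Groups were apart in both genotypes. The U3 copies snoRNA:U3:9B (-2.97) and snoRNA:U3:54Aa (-2.64) are near-identical, so their reads may be shared, and library steps that select by size bear on such short RNAs, which was not tested. Of 10 spliceosomal and 7SK small nuclear RNAs 1 was lower, snRNA:7SK (-1.22).

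In the RNA exosome, which trims and degrades RNA from the 3′ end, 5 of 7 genes were lower, with Ski6 at -1.45, Rrp4 at -1.36 and Csl4 at -1.32, while the nuclease Rrp6 was not called (0.65). Of 11 genes of the signal recognition particle, its receptor and the Sec61 channel, which bring proteins to the endoplasmic reticulum, 7 were lower. Srp14 went from 464.7 and 450.4 to 105.1 and 100.2, at the floor of the table (-2.15). Integrator had 4 of 13 lower (IntS2, -1.81), peroxisome assembly 5 of 11 (Pex5, -1.47) and purine synthesis 4 of 8 (ade3, -2.65, and ras, an IMP dehydrogenase gene, -1.55). Mediator had 3 of 19 lower, near the share of all genes, with 16 not called. None of these families had a higher member. On the other side, all 3 genes of replication protein A were higher, from 0.70 to 1.02, as were 2 of 10 cohesin and separase genes (Sse, the separase, 1.08), 2 of 9 augmin genes (dgt3, 0.90) and 2 of 4 clamp loader genes (RfC4, 0.75).

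Some large mean rises could not be called. Nipped-B, the cohesin loader, was at 2968 in immature replicate 1 and 307.7 in immature replicate 2, against 5086 and 6815 in mature mutant oocytes (log2 fold change 2.62, SE 1.32, limma adjusted p = 0.215). MED26 behaved alike, with 2061 and 238.9 and then 3139 and 4152. In the wild type the immature libraries of Nipped-B were at 5780 and 593.1, so the low value again was in replicate 2.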
